A study of Mus musculus with 2 samples.

Results

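The 6 Dlx genes of the mouse form 3 convergent pairs, Dlx1 and Dlx2 on chromosome 2, Dlx3 and Dlx4 on chromosome 11, and Dlx5 and Dlx6 on chromosome 6, and open chromatin was described over each pair in whole embryos. They are 6 of the 21938 protein-coding genes of the GENCODE M21 annotation. They were chosen by name, and for each pair a locus was taken that ran from 100 kb before the first gene body to 100 kb after the second, on mm10. The 3 loci held 125 of the 207946 nuclear DNase-seq peaks of replicate 1 and 234 of the 229568 of replicate 2. The stretch between the gene bodies of a pair, called the interval here, is given separately for each pair. DNase-seq cuts chromatin with the enzyme DNase I, which reaches DNA where nucleosomes are displaced, so a peak is an accessible site of fixed width and a hotspot is a stretch of variable width with more cuts than its surroundings. The material was whole B6NCrl embryos of age 10.5 days, healthy and of pooled sex, and 2 biological replicates formed 1 group with no treated or mutant arm. With 1 group of 2 there is no contrast to test, so counts and levels are described, and the same quantity over all genes or all peaks stands beside them.

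Dlx genes encode homeodomain transcription factors related to Distal-less of Drosophila, and their homeodomain binds sequences with a TAAT core. In vertebrates the genes of a pair point towards each other and share enhancers in the interval between them. Dlx1, Dlx2, Dlx5 and Dlx6 act in the ventral forebrain, where they drive the making of GABAergic neurons, and nested Dlx expression patterns the pharyngeal arches that form the jaws. Dlx5 and Dlx6 also act in limb buds, bone and the inner ear, Dlx3 in skin, hair, teeth and placenta, and Dlx4 is the least studied of the family. A whole embryo mixes the cells that use these genes with many that do not, so fewer cells with an open site and less signal per cell cannot be told apart here. For the same reason a site without a peak is not shown to be closed in every cell type.

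Between the libraries replicate 2 had 1.10 times as many peaks as replicate 1, and the median peak strength, a whole-number score deposited by the authors whose definition is not stated, was 50 against 41. The hotspot number was near equal at 188404 and 188191, but replicate 2 hotspots covered 1.32 times as many bases, and those of 2 kb or more, called wide here, numbered 636 and 4427. Of marker genes for parts of the embryo, a peak within 1 kb of a transcription start site (TSS) was present in both replicates for 4 of 4 neural tube, 3 of 3 neural crest, 3 of 3 limb bud, 2 of 3 heart and 2 of 3 somite genes. The same was found for 1 of 3 liver genes and for 0 of 3 primitive red cell, 0 of 2 decidua and 0 of 3 trophoblast genes. Over all protein-coding genes the share was 69.7%, and lists of 2 to 4 genes are too small to show which tissues were present.

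The sites on which the description turns are shown first, as 150 bp peaks of replicate 1 read from the plus strand of the RefSeq copy of GRCm38.p6, which has the chromosome sequences of mm10. From the intervals come the only shared peak between Dlx1 and Dlx2 at chr2:71543116-71543265, the only shared peak between Dlx3 and Dlx4 at chr11:95126696-95126845, and 3 between Dlx5 and Dlx6. These 3 are the peaks of highest mean strength at chr6:6870516-6870665 and chr6:6875196-6875345, and one that holds the homeodomain letters TAATTA at chr6:6869136-6869285. A further TAATTA peak lies in an intron of Metap1d, at chr2:71499416-71499565, 28.6 kb from the nearest Dlx1 TSS. TAATTA is in capitals in these sequences where it occurs, and all other letters are in lower case. The pair of values after each name is the peak strength in replicate 1 and in replicate 2.
Dlx1-Dlx2 interval, 84 and 91: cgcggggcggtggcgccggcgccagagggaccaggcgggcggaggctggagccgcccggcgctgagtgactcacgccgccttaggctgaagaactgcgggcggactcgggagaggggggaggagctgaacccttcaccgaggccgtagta
Dlx3-Dlx4 interval, 78 and 81: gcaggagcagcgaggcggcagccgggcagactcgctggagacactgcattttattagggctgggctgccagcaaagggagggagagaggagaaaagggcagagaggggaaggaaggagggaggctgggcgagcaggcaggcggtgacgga
Dlx5-Dlx6 interval, 46 and 68: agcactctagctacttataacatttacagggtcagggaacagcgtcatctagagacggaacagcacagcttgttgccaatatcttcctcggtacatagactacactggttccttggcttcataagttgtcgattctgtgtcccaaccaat
Dlx5-Dlx6 interval, 33 and 71: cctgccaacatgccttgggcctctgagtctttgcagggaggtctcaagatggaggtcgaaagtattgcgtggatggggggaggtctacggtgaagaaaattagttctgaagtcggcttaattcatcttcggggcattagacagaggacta
Dlx5-Dlx6 interval with TAATTA, 24 and 70: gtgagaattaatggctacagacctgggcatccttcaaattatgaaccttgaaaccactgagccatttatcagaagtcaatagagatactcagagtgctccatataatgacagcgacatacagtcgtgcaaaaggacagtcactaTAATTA
Metap1d intron with TAATTA, 53 and 56: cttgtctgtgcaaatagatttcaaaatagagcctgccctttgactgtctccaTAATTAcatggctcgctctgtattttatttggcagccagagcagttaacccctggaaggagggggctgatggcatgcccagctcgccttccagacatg

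The second set is shown because it holds the strongest distal sites beside each pair, where distal means over 1 kb from any annotated TSS. They lie at chr2:71598956-71599105 and chr2:71547956-71548105, both upstream of Dlx2, at chr11:95118636-95118785 and chr11:95117116-95117265, both upstream of Dlx3, and at chr6:6885036-6885185 and chr6:6915276-6915425, both upstream of Dlx5. None overlaps an annotated gene. Capitals mark the core letters of the motif of the insulator protein CTCF on either strand, which are CCA, any 2 bases, AG, any 2 bases and GGC. Values after each name are again the strengths.
52.3 kb from Dlx2, 110 and 116: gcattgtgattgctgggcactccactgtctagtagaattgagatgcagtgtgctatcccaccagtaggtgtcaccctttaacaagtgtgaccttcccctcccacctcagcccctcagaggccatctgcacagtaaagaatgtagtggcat
1277 bp from Dlx2, 94 and 101: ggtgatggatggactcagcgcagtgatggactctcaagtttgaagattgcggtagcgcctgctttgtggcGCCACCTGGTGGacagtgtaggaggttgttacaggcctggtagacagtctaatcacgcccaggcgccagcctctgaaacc
1408 bp from Dlx3, 92 and 98: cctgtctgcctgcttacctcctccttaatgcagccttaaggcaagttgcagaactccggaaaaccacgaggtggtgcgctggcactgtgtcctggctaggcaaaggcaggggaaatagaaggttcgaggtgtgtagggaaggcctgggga
2928 bp from Dlx3, 80 and 98: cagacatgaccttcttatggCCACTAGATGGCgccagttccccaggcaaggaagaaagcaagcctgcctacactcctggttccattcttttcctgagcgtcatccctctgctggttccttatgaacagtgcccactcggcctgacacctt
3026 bp from Dlx5, 89 and 109: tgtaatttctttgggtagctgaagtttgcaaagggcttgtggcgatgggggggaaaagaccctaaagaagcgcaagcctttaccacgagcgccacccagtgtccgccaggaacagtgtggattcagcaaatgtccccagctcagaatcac
33.3 kb from Dlx5, 76 and 94: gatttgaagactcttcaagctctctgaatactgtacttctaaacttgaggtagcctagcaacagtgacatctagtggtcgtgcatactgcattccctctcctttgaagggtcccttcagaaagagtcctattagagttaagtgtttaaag

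Every Dlx promoter carried a peak in both replicates. A peak lay within 1 kb of an annotated TSS in both replicates at 6 of 6 Dlx genes, beside 69.7% of all protein-coding genes, so at this threshold the family shares its state with most genes of the genome. The strongest such peak overlapped between the replicates at each of the 6. Level was where the genes differed, and Dlx1 led the order with a strength of 117 in replicate 1 and 124 in replicate 2, or 120.5 ± 4.95 (SD, n = 2). Of the genes open in both replicates, 62.1% had a lower mean than Dlx1. The Dlx6 peak scored 105 and 109, a mean of 107 ± 2.83. Dlx2 followed with 95 and 111, a mean of 103 ± 11.3, and Dlx3 with 94 and 109, a mean of 101.5 ± 10.6. The values of Dlx6, Dlx2 and Dlx3 overlap between the replicates, so these neighbours in the order do not differ beyond their spread. Dlx5 was lower at 74 and 93, a mean of 83.5 ± 13.4, and its higher value stayed below both Dlx2 values and both Dlx3 values. Dlx4 came last at 38 and 77, a mean of 57.5 ± 27.6, and only 8.61% of open genes lay below it. Its spread is the widest of the 6, and its replicate 2 value exceeds the replicate 1 value of Dlx5. Within each replicate, though, Dlx4 lay below Dlx5, at 38 against 74 and at 77 against 93. The median of the strongest TSS peak over open genes was 109 in replicate 1 and 118 in replicate 2, and Dlx1 alone lay above it in both.

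**Figure D1:**
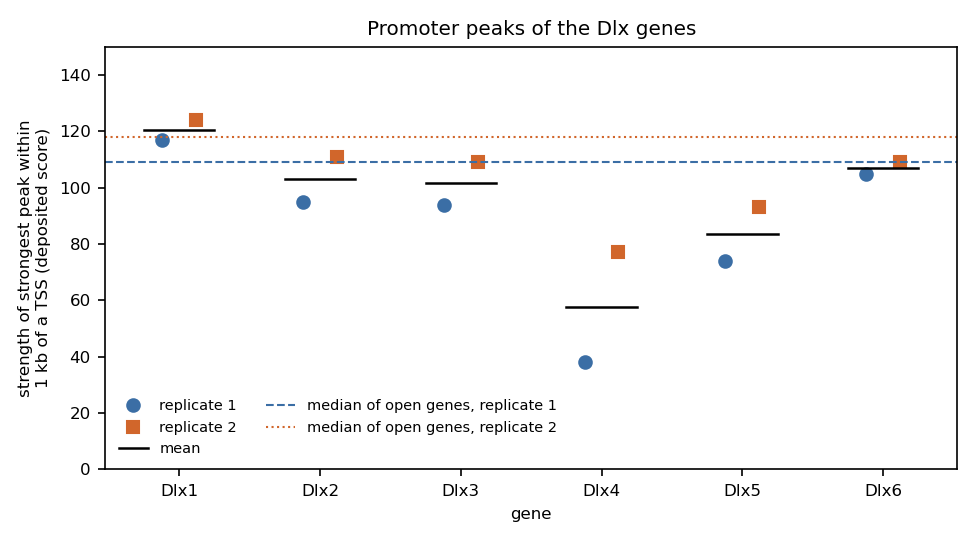
Strength of the strongest peak within 1 kb of any TSS of each Dlx gene (vertical axis, deposited score, from 0) in replicate 1 (circles) and replicate 2 (squares), with the mean of 2 as a bar and the median over open genes of each replicate as a broken line. Dlx1 lies above both medians, and the Dlx4 values of 38 and 77 are the furthest apart.

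At 5 of the 6 genes the centre of the strongest peak lay close upstream of the nearest annotated TSS. The distance was 28 bp for Dlx3 and 26 bp for Dlx5 in both replicates, 37 and 77 bp for Dlx2, 142 and 122 bp for Dlx1, and 190 and 150 bp for Dlx4. The Dlx1 and Dlx4 peaks lay inside the gene bodies, so the TSS they precede is an internal one and not the start of the gene. The Dlx6 peak was further out, at 423 bp upstream in both. All 6 promoters were above the median gene in CpG content, and within 500 bp of the TSS that lies furthest upstream the ratio of observed to expected CpG ran from 0.637 at Dlx1 to 0.763 at Dlx2, against a median of 0.553 over all protein-coding genes. The RefSeq promoter table, 250 bases before to 50 after a gene start on GRCm38.p6, matched 2 of the 6 genes, Dlx1 and Dlx2. Its Dlx2 window, at chr2:71546705-71547004, lay under the peak of strength 95 and 111, while no peak overlapped the Dlx1 window at chr2:71529195-71529494, and the strongest Dlx1 peak began at 71529636 in replicate 1, past its end. Those windows held 29 and 27 CpG, more than 87.1% and 84.5% of the 32851 promoters in the table, whose median was 7. The Dlx2 promoter is printed from the minus strand with CpG in capitals, because it is the Dlx promoter in that table with a peak over it.
Dlx2 promoter: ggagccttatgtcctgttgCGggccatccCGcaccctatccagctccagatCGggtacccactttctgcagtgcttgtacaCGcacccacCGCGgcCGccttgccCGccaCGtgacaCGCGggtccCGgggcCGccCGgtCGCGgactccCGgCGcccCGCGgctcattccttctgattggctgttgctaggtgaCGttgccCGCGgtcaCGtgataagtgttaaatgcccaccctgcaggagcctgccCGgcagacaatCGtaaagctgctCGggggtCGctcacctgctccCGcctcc

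Around the promoters the replicates parted. In replicate 2 the Dlx1, Dlx2, Dlx5 and Dlx6 TSSs lay inside a wide hotspot, and in replicate 1 none of the 6 did. These are 4 of 6 and 0 of 6 genes, beside 17.7% and 2.85% of all protein-coding genes, and 0 of 6 in both replicates, beside 2.78%. The hotspot over the Dlx5 TSS was 537 bp in replicate 1 and 11429 bp in replicate 2, where it ranked 12 among 188191 hotspots by width. Over the Dlx2 TSS the widths were 279 and 10039 bp, the latter at rank 18, and over the Dlx1 TSS they were 468 and 7026 bp, at rank 60. At Dlx6 no replicate 1 hotspot covered a TSS and the replicate 2 hotspot was 7637 bp wide, at rank 51. The widths at Dlx3, 319 and 1408 bp, and at Dlx4, none and 1797 bp, stayed below 2 kb. The Dlx4 hotspot of replicate 2 began at chr11:95145336, just past the end, at 95145327, of another of 2520 bp over Dlx4. Replicate 2 hotspots thus covered 100% of the Dlx1, Dlx2 and Dlx5 gene bodies and 89.8% of Dlx6, against 7.97%, 6.24%, 31.1% and 8.46% in replicate 1. Dlx3 and Dlx4 had 41.5% and 60.4% of their bodies covered in replicate 2 and 5.31% and 3.03% in replicate 1. Replicate 2 had more wide hotspots across the genome, by 6.96 times, and the part of that library-wide difference in the Dlx values was not tested.

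The Dlx1-Dlx2 locus, chr2:71428113-71646754, held 33 peaks in replicate 1 and 75 in replicate 2, a ratio of 2.27 where the whole libraries gave 1.10. Of the replicate 1 peaks, 28 (84.8%) overlapped a replicate 2 peak, beside 74.5% of all replicate 1 peaks. In the other direction 27 (36%) of the replicate 2 peaks overlapped a replicate 1 peak, beside 67.6% of all. So most replicate 1 sites were present in replicate 2, which had many more. Of the 48 unmatched replicate 2 peaks, 7 lay in the Dlx1 body, 16 in the interval, 8 in the Dlx2 body, and 12 and 5 in the left and right flanks. In all, 33 of the 75 replicate 2 peaks, and 4 of the 33 replicate 1 peaks, fell inside the 2 wide replicate 2 hotspots. Outside those hotspots the counts were 29 and 42, a ratio of 1.45. The hotspots were called in replicate 2, so this split is not independent of the replicate 2 counts. Joining replicate 2 hotspots with gaps of at most 1 kb gave a near-continuous run of 22.5 kb over both genes, of which 96.4% was hotspot, with 5 replicate 1 and 42 replicate 2 peaks. Joined the same way, the longest replicate 1 run in this locus was 2.87 kb and lay in the far right flank, at chr2:71627435-71630308.

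The interval between Dlx1 and Dlx2, 9426 bp, showed the difference most plainly. Replicate 1 had 1 peak and 1.95% of the interval in hotspots, and replicate 2 had 17 peaks and 97.5%. The replicate 2 peaks were of a similar height, from 64 to 91 with a median of 71, and stood a median of 530 bp apart. The one shared peak, the first sequence above, scored 84 and 91, lies 2759 bp from the Dlx2 TSS and is 73.3% G and C. Within the Dlx1 body the counts were 1 and 8 peaks, and within the Dlx2 body 1 and 9. The strongest replicate 2 peak that nothing overlapped in replicate 1, at chr2:71535296-71535445 in an intron of the antisense RNA gene Dlx1as, scored 87 and was 5510 bp from the nearest replicate 1 peak. In replicate 1 the strongest unmatched peak of the locus, at chr2:71499796-71499945 in Metap1d, scored 34 and lay 270 bp from a replicate 2 peak. The unmatched replicate 2 peaks were therefore not weak ones, with a median strength of 66 against 67 over all 75, while the unmatched replicate 1 peaks had a median of 29 against 56.

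**Figure D2:**
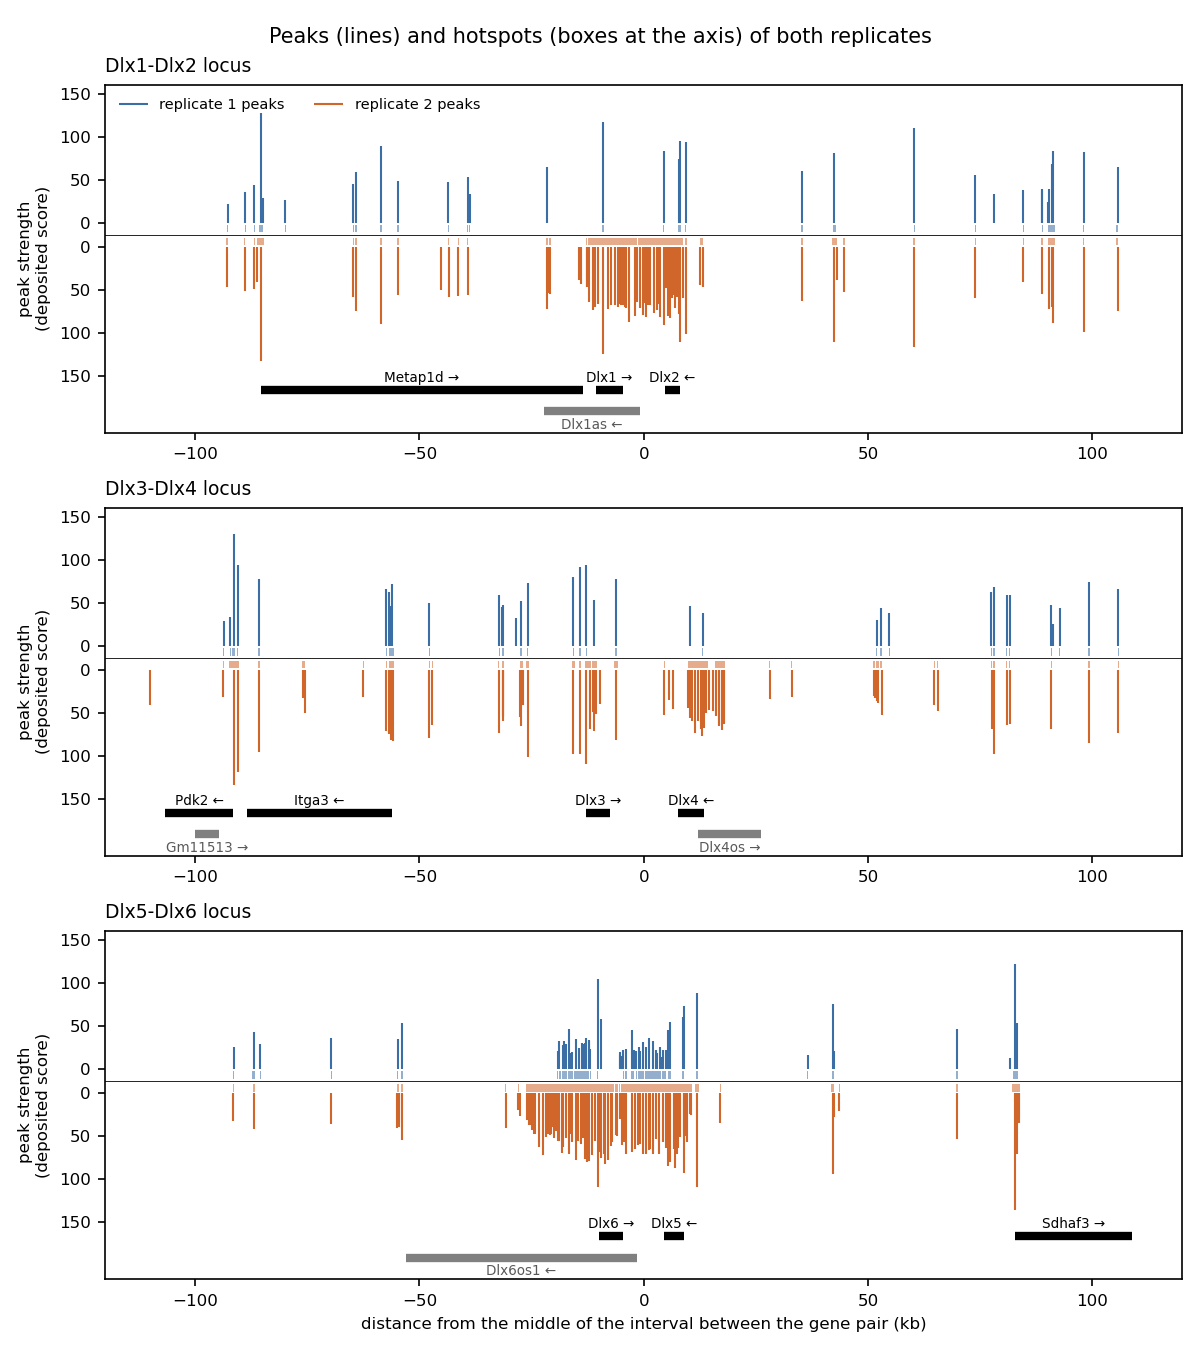
Peaks of replicate 1 (lines up) and replicate 2 (lines down), with height as deposited strength, and hotspots (boxes at the axis) against the distance in kb from the middle of each interval. Bars below mark the longer genes with a TSS in the locus, protein-coding in black and other types in grey, with arrows for their direction. Replicate 2 peaks crowd over Dlx1-Dlx2 and Dlx5-Dlx6, and the strong flank peaks named in the text have a line in both directions.

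The Dlx3-Dlx4 locus, chr11:95020119-95246263, held 35 and 67 peaks, a ratio of 1.91. Replicate 2 overlapped 30 (85.7%) of the replicate 1 peaks, and replicate 1 overlapped 31 (46.3%) of the replicate 2 peaks. Unlike the other pairs, its interval of 15150 bp was sparse in both replicates, with 1 and 4 peaks and hotspots over 2.45% and 8.58% of it. The shared interval peak, the second sequence above, scored 78 and 81 and lies 6652 bp from the Dlx3 TSS. Part of the extra replicate 2 peaks lay at Dlx4 and its antisense partner Dlx4os, where a hotspot run of 8.30 kb held 2 replicate 1 and 17 replicate 2 peaks. Peaks of this locus outside wide replicate 2 hotspots numbered 31 and 55, a ratio of 1.77, so most of the surplus lay outside them. The strongest unmatched replicate 2 peak lies in a Dlx4 exon, at chr11:95144276-95144425, and scored 73, with 990 bp to the nearest replicate 1 peak. The strongest unmatched replicate 1 peak scored 44 and lies at the start of the noncoding RNA gene Gm11515, at chr11:95225516-95225665.

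The Dlx5-Dlx6 locus, chr6:6763334-6982085, was the richest, with 57 and 92 peaks, a ratio of 1.61. Replicate 2 overlapped 45 (78.9%) of the replicate 1 peaks, and replicate 1 overlapped 43 (46.7%) of the replicate 2 peaks. Here replicate 1 too had a dense block of peaks, though of low strength. The interval of 9236 bp held 16 peaks in replicate 1, from 14 to 46 with a median of 23.5, and 14 in replicate 2, from 53 to 71 with a median of 65.5. No replicate 1 peak of the interval reached the lowest replicate 2 peak. The peaks stood a median of 580 and 680 bp apart, and hotspots covered 71.4% and 99.6% of the interval. Replicate 2 joined into a run of 38.4 kb, chr6:6847012-6885451, that was 96.2% hotspot and held 44 and 73 peaks. The longest replicate 1 run, chr6:6867871-6879216, spanned 11.3 kb over the interval and parts of both genes and was 69.6% hotspot. The block extended past Dlx6 into the antisense RNA gene Dlx6os1, also known as Evf2, a noncoding RNA that overlaps the Dlx5-Dlx6 enhancers. Replicate 1 had 2 wide hotspots in this locus, of 2425 bp in the interval and 2010 bp in Dlx6os1, and none in the other loci. Replicate 2 had 7 here, 2 at Dlx1-Dlx2 and 3 at Dlx3-Dlx4. Peaks of the Dlx5-Dlx6 locus outside wide replicate 2 hotspots numbered 16 and 28, a ratio of 1.75, and those inside 41 and 64.

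Paired so that each is the other's best overlap, 11 peaks were shared in the Dlx5-Dlx6 interval, and all 11 were stronger in replicate 2. The strongest by mean, the third sequence above, scored 46 and 68. Next came the peak at chr6:6875196-6875345 with 33 and 71 and that at chr6:6874316-6874465 with 37 and 66, which holds the CTCF letters. These were followed by peaks of 32 and 70 at chr6:6872876-6873025, 26 and 71 at chr6:6873596-6873745, 24 and 70 at chr6:6869136-6869285 and 26 and 60 at chr6:6872016-6872165. In each of these the replicate 2 value was well above the replicate 1 value. Those tied after them were the peak at chr6:6872336-6872485 with 21 and 59 and the one at chr6:6877516-6877665 with 23 and 57. Peaks covered 25.8% and 22.7% of the interval, and the paired peaks were often offset, so an overlap of 1 bp asks little here, and 6 peaks were shared there when 75 bp was asked.

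**Figure D3:**
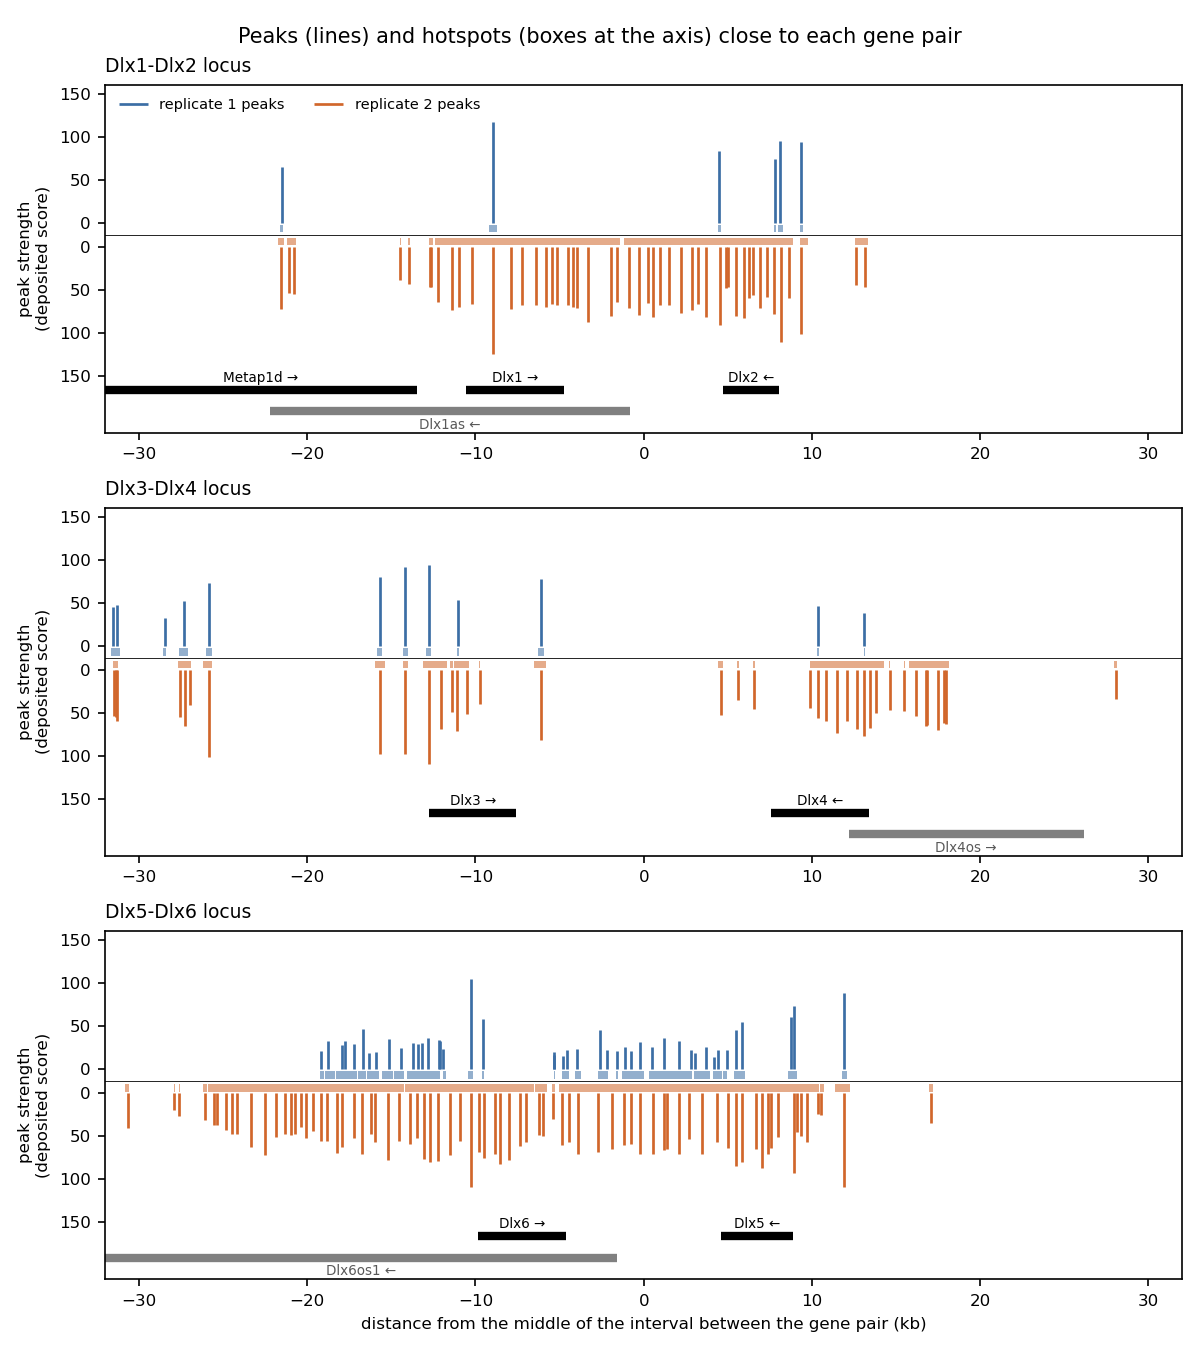
The same peaks and hotspots close to the middle of each interval, on the same axes. Replicate 2 hotspots run almost without a break over Dlx1-Dlx2 and Dlx5-Dlx6, where replicate 1 has isolated peaks at Dlx1-Dlx2 and low, dense peaks at Dlx5-Dlx6, and the Dlx3-Dlx4 interval is sparse in both.

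Strength at shared sites also differed between the loci. Over the 3 loci 100 peaks were shared, 97 of them stronger in replicate 2, 1 stronger in replicate 1 and 2 equal, beside 85.9% stronger in replicate 2 over all shared peaks. The log2 ratio of replicate 2 to replicate 1 strength had a median of 0.26 over all 152116 shared peaks, with an SD of 0.29. It was 0.15 over the 27 shared peaks at Dlx1-Dlx2, 0.25 over the 30 at Dlx3-Dlx4 and 0.84 over the 43 at Dlx5-Dlx6. No nuclear peak scored above 148 in replicate 1 or 149 in replicate 2, which leaves strong peaks less room for a high ratio. The median strength of all replicate 1 peaks was 56, 59 and 30 in these loci. The ratios were not matched for strength, and its part in them was not tested. At Dlx5-Dlx6 the 31 shared peaks inside wide replicate 2 hotspots had a median of 1.15 and the 12 outside had 0.24. Those hotspots were called in replicate 2, so the split is not independent of the ratio and is given as a description. At Dlx1-Dlx2 the 4 shared peaks inside such hotspots had a median of 0.10 and the 23 outside 0.16.

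**Figure D4:**
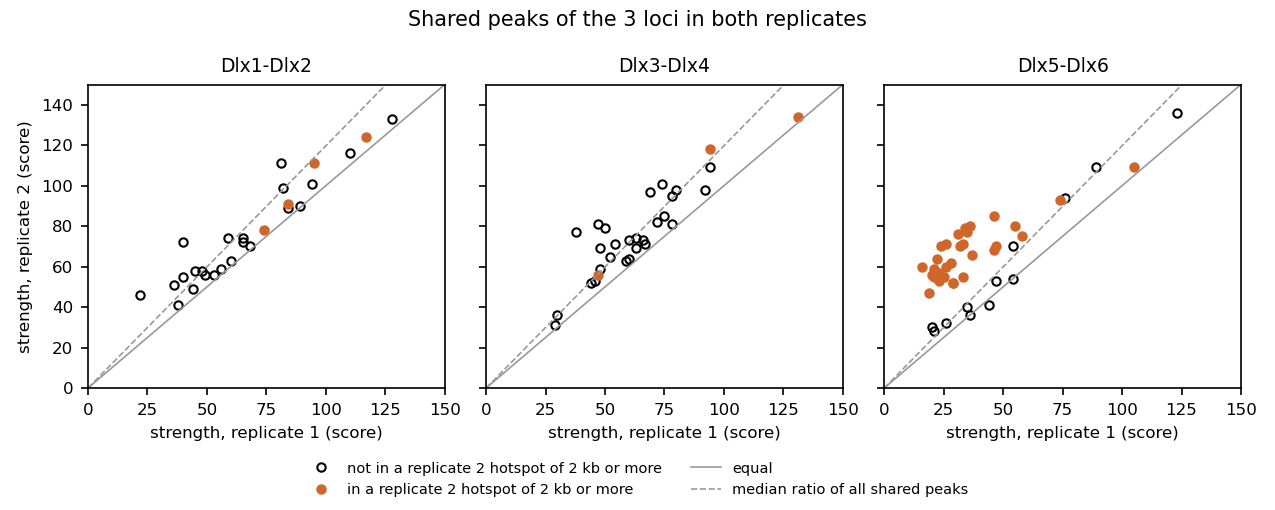
Strength in replicate 2 against strength in replicate 1 for the shared peaks of each locus (27, 30 and 43 points, deposited scores). Filled points lie in a replicate 2 hotspot of 2 kb or more, the solid line marks equal values and the broken line the median ratio over all shared peaks. Most filled points of Dlx5-Dlx6 stand far above both lines, and most open points of the 3 loci lie near the broken line. Filled promoter peaks of that locus differed less, with Dlx6 at 105 and 109 below the broken line and Dlx5 at 74 and 93 near it.

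Set against the windows of all protein-coding genes, each gene body with 100 kb on both sides, the Dlx windows were moderate to dense in replicate 1 and dense in replicate 2. In replicate 1 they held from 15.1 peaks per 100 kb at Dlx1 to 27.9 at Dlx5, around an all-gene median of 11.3. Dlx1, Dlx2, Dlx3 and Dlx4 stood between the 70.3 and 76.6 percentiles, and Dlx5 and Dlx6 both at 97.3. In replicate 2 they held from 31.6 at Dlx4 to 45.0 at Dlx5, around a median of 12.6, and stood between the 96.4 and 99.5 percentiles. All 6 windows had at least 1.5 times as many peaks in replicate 2, beside 6.75% of the 14942 gene windows with 20 or more replicate 1 peaks. Windows of a pair overlap almost wholly, so these are 3 regions rather than 6.

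**Figure D5:**
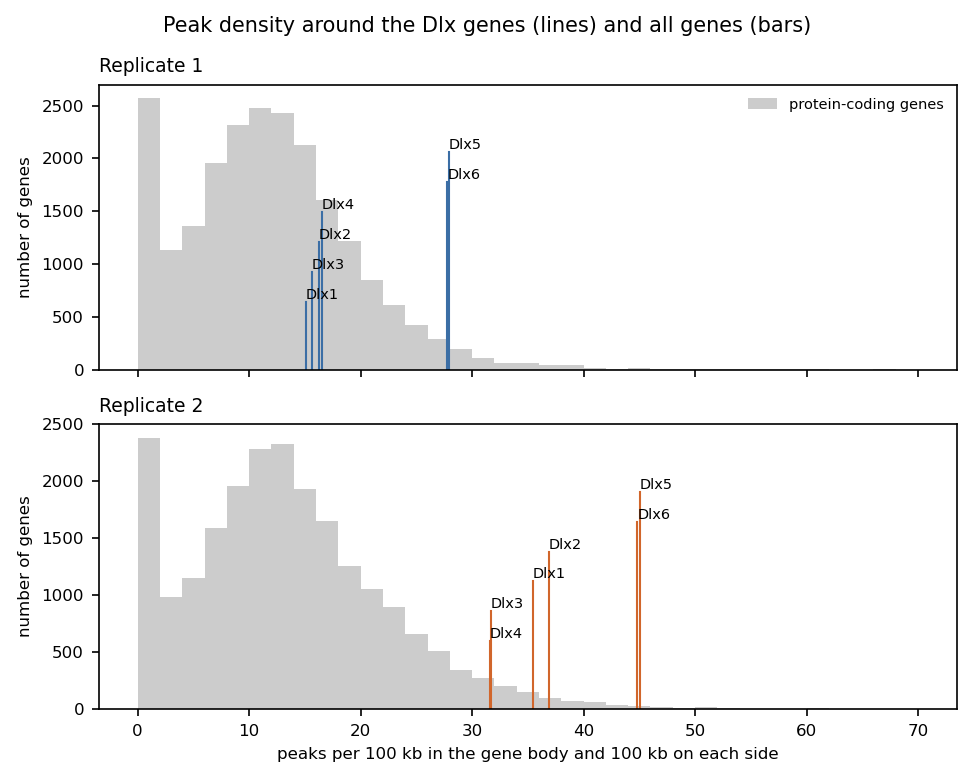
Number of protein-coding genes (vertical axis) by peaks per 100 kb in the gene body and 100 kb on each side (horizontal axis), with the Dlx genes as labelled lines whose heights carry no value. In replicate 1 Dlx5 and Dlx6 stand apart from the other members, and in replicate 2 all 6 lie in the upper tail.

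The 3 strongest distal shared peaks in the flanks of each pair, chosen by their mean strength, were then described. The strongest distal site of the Dlx1-Dlx2 flanks, 52.3 kb upstream of Dlx2, scored 110 and 116, a mean of 113 ± 4.24 (SD, n = 2), which is above the promoter means of 5 of the 6 genes. The next, 1277 bp from Dlx2, scored 94 and 101, and the third, at chr2:71581096-71581245, 81 and 111. In the Dlx3-Dlx4 flanks the strongest scored 92 and 98 and stood 1408 bp upstream of Dlx3, followed by 80 and 98 at 2928 bp and, at chr11:95106936-95107085, 74 and 101 at 13.1 kb. These 3 exceed the Dlx4 promoter in both replicates. In the Dlx5-Dlx6 flanks the strongest scored 89 and 109 at 3026 bp upstream of Dlx5, above the Dlx5 promoter peak of 74 and 93, and the next 76 and 94 at 33.3 kb. The third, at chr6:6860316-6860465 within Dlx6os1 and the dense block, scored 36 and 80 the largest log2 ratio of the 9 at 1.15. The other 8 had log2 ratios from 0.08 to 0.45. Of the 9, 3 held the CTCF letters, at 1277 bp from Dlx2 and at 2928 bp and 13.1 kb from Dlx3. Among all distal shared peaks at least as strong as the weakest of the 9, 16.6% held them. In the 3 loci 5 of the 34 such peaks did. The weakest of the 9, within Dlx6os1, had a mean of 58 and the other 8 had means of 85 or more, so that background includes weaker sites. None of the 9 held TAATTA. Only exact matches to the motif letters were counted, so near matches are left out, and binding of CTCF was not measured.

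The homeodomain letters TAATTA stood in few of the sites. Of 75 distal shared peaks in the 3 loci, 4 (5.33%) held TAATTA, beside 4.27% of all 112466 distal shared peaks. They were 2 of 21 at Dlx1-Dlx2, 0 of 23 at Dlx3-Dlx4 and 2 of 31 at Dlx5-Dlx6. Besides the printed pair, they lie at chr2:71517116-71517265 in an exon of Metap1d, with strengths of 65 and 72, and at chr6:6853956-6854105 in Dlx6os1, with 21 and 55. The other motifs were searched on both strands. The CTCF letters were in 7 of the 75 (9.33%, beside 10.3% of all), the E-box CAGCTG in 10 (13.3%, beside 17.2%), and TGACAG, bound by MEIS and TGIF factors, in 14 (18.7%, beside 15.2%). The letters GCCNNNGGC of AP-2 factors were in 5 (6.67%, beside 5.43%), ACAATG of SOX factors in 5 (6.67%, beside 9.74%), CATATG in 2 (2.67%, beside 3.20%), and GACCACCCA of GLI factors in 0, beside 0.27%. These are small counts near the background shares and are given as a description. The CTCF core and GCCNNNGGC can share bases, so those counts are not independent. The median G and C content was 54% at Dlx1-Dlx2, 56% at Dlx3-Dlx4 and 47.3% at Dlx5-Dlx6, against 50% over all distal shared peaks.

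Other genes with a TSS in the loci show how the Dlx promoters compare with their neighbours. Metap1d, a methionine aminopeptidase gene beside Dlx1, scored 128 and 133, above every Dlx promoter in both replicates. Pdk2, a pyruvate dehydrogenase kinase gene, scored 131 and 134 and Sdhaf3, an assembly factor of mitochondrial complex II, 123 and 136, while Itga3, an integrin gene, scored 72 and 82. Pdk2 had a wide hotspot of 2221 bp over its TSS in replicate 2, and the other 3 genes did not. Of the antisense genes, Dlx1as had no TSS peak in replicate 1 and 7 in replicate 2, the strongest at 80. The strongest TSS peaks of Dlx6os1, 46 in replicate 1 and 79 in replicate 2, were different sites. The first was paired with a replicate 2 peak of 68, the second with a replicate 1 peak of 34. Dlx4os shares its TSS peak, 38 and 77, with Dlx4. At the outer limit, the outermost shared peaks inside 100 kb stood 74.35 to 97.5 kb from the gene bodies, with strengths of 22 to 66 in replicate 1 and 31 to 74 in replicate 2. The first ones outside stood 105 kb or more away, with 29 to 101 and 32 to 106.

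Promoters of genes that act with the Dlx family were open in most cases, as were those of most genes. Over 5 lists of 69 different genes, 59 (85.5%) had a TSS peak in both replicates, beside 69.7% of all protein-coding genes. Among 14 upstream factors 11 did, led by Msx1 (124 and 126), a homeodomain factor of arches and limbs, Bmp4 (110 and 115), a signalling ligand, and Msx2 (108 and 123). Nkx2-1, a ventral forebrain and lung factor, and Fgf8 and Trp63 had one in replicate 2 alone, at 76, 72 and 34. All 16 forebrain GABAergic genes had a peak in both, from Slc32a1 (50 and 55), the vesicular GABA transporter, to Ebf1 (134 and 139) and Pbx3 (138 and 133). The enzymes that make GABA were in between, Gad1 at 84 and 107 and Gad2 at 65 and 74. Of 15 arch and jaw genes 13 did, among them Hey1 (125 and 132) and Six2 (129 and 120), and Barx1 had a peak in replicate 2 alone, at 76. Of 15 limb, bone and ear genes 13 did, led by Sox9 (130 and 131) and Col2a1 (120 and 125) of cartilage and Gbx2 (104 and 122), while Bglap, the osteocalcin gene of mature bone, had none in either and Fgf8 was as above. Of 13 skin and placenta genes 8 did, led by Cited2 (116 and 127), Klf4 (101 and 123) and Esrrb (90 and 98), while Krt14 of basal skin and Gcm1 of the placenta had none, Krt5 had 20 in replicate 1 alone, Cdx2 had 61 in replicate 2 alone and Trp63 was as above. The Dlx1 mean of 120.5 lies above and the Dlx4 mean of 57.5 below the median of 96 over the open genes of the lists.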

How the data were processed

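Peaks and hotspots of whole embryos from 2 biological replicates were analysed as 1 group. They are separate deposits for each replicate, called by the authors on mm10, per the labels and the README text deposited with them. The sources used here do not give the aligner, the callers, their versions or thresholds. Peaks have a fixed width of 150 bp on a grid of 20 bp, and the deposited signal value of each, called its strength, is a whole number. The value of a deposited hotspot is a q-value as −log10, with 1.30 the lowest and 100 the code for the smallest q, and no hotspot was left out for it. Depth is not known from these files, which allows no interval for counting error.

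Repeated lines, 28 of 208148 and 47 of 229803, were dropped from the peak files, and only nuclear chromosomes were kept. Genes and TSSs were those of GENCODE M21. An overlap of at least 1 bp made peaks shared, and for strengths, motifs and numbers of shared peaks each had to be the other's best overlap. Means are over 2 replicates with their SD, and no test was run. Named sites were the shared peaks of each interval, or the 8 of highest mean where there were more, the 3 strongest distal shared peaks of each flank pair, the strongest unmatched peaks, the peaks at the limit, and in each partner list the 3 strongest open genes and every gene not open, of which a few are not reported here. The members, lists, motifs and the width of 2 kb were chosen with earlier results of these data known, and Gad1, Gad2 and Slc32a1 were named after their values were seen. Other settings were tried for the overlap, flank, TSS window, TSSs per gene, peaks kept, hotspot threshold and replicates. Peak pairing, window queries and the TAATTA and CTCF searches were tested on simulated data. Python 3.11.15, numpy 2.4.6, pandas 2.3.3 and matplotlib 3.10.9 were used.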

Additional observations from a re-analysis of the deposited data

How the results depend on the processing

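Of 75 alternatives over 16 results, 20 moved the value past its limit. That limit was 1.5 times for counts and ratios and the SD between the replicates for hotspot lengths, which is wide. A reversal was defined only for the ratios of peak numbers, as a crossing of 1, and 0 were found. Promoter peaks were present at 5 of 6 genes with the 5'-most TSS alone, without Dlx1, and with the stronger 50% of peaks, without Dlx4. With a 50 kb flank the shared peaks were 12 in place of 27 at Dlx1-Dlx2 and 19 in place of 30 at Dlx3-Dlx4, the hotspot length in both replicates at Dlx1-Dlx2 was 3.23 in place of 8.32 kb and at Dlx3-Dlx4 5.17 in place of 8.78 kb, and the Dlx1-Dlx2 ratio of peak numbers was 4.54 in place of 2.27. Outside hotspots of 2 kb or more, an alternative chosen after seeing the data, that ratio was 1.45, and the shared peaks of Dlx5-Dlx6 were 12 in place of 43. With the stronger 50% of peaks, the Dlx5-Dlx6 values were 13 shared peaks, 1 in place of 11 in the interval, 0 in place of 2 with TAATTA, and a ratio of 4 in place of 1.61. With 75 bp of overlap there were 6 shared interval peaks and 1 peak with TAATTA. The causes were not tested.

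With 1 replicate left out, the value is that of the other alone. Peaks then ranged from 33 to 75 at Dlx1-Dlx2, 35 to 67 at Dlx3-Dlx4 and 57 to 92 at Dlx5-Dlx6, those in the intervals from 1 to 17, 1 to 4 and 14 to 16, and distal peaks with TAATTA from 2 to 2, 0 to 0 and 2 to 4. Hotspot length ranged from 9.57 to 33.6, 10.2 to 23.3 and 19.8 to 42.1 kb, and 6 of 6 promoters had a peak in each replicate. The dense blocks at Dlx1-Dlx2 and Dlx4 thus rest on replicate 2. Part of the Dlx5-Dlx6 block does too. Its replicate 2 hotspots at chr6:6849405-6851623 and chr6:6851631-6853785 held 0 replicate 1 peaks. Hotspots covered 89.8% of the Dlx6 body in replicate 2 and 8.46% in replicate 1. No paired analysis was possible because there is 1 group and no comparison between groups.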

Other observations

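Wide hotspots over a TSS were also counted for the partner genes of the Dlx family. Over the 69 genes, 41 had a TSS inside a hotspot of 2 kb or more in replicate 2, beside 17.7% of all protein-coding genes, and 6 in replicate 1, beside 2.85%. Emx2, a homeobox gene, had the longest in replicate 2 at 14585 bp, with none over a TSS in replicate 1 and promoter peaks of 116 and 120. Msx1 and Msx2 had 7939 and 8306 bp in replicate 2 and 503 and 509 bp in replicate 1. The 6 genes with a wide hotspot in both replicates include Lhx8, a forebrain factor, at 2966 and 6065 bp, Six2, a jaw mesenchyme factor, at 2919 and 6040 bp, Hand2, an arch and limb factor, at 2237 and 4695 bp, and Prrx1, a limb mesenchyme factor, at 2447 and 4988 bp. Cited2 and Hey1 were near equal between the replicates, at 3120 and 3189 bp and at 2111 and 2136 bp. The partner genes named here for their hotspots were chosen after their values were seen, and the part of the library-wide difference in wide hotspots was not tested.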
